A study of Mus musculus with 8 samples.

Results

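The epidermal lineage transcription factors are 10 genes, Trp63, Klf4, Klf5, Grhl1, Grhl3, Ovol1, Gata3, Tfap2a, Zfp750 and Sox6. They were chosen by name, with earlier results of these data known. Every probe set that the platform annotation assigns to 1 of them alone was taken, which gave 18 of the 45037 probe sets tested, for 10 of 17097 named genes. Expression was compared between 4 arrays of G9a cKO animals and 4 arrays of G9a WT animals, all mice labelled as 15 weeks old. Both groups had received weekly doses of DMBA, a mutagen, and TPA, which promotes skin tumours, on the shaved back from 8 weeks of age for 6 weeks (200 µl at 0.25 and 0.02 mg per ml). The RNA came from interfollicular epidermis, the skin epithelium between the hair follicles, labelled pre-neoplastic. G9a, encoded by Ehmt2, is a histone H3 lysine 9 methyltransferase that marks repressed chromatin. The sources used here do not give the promoter that drove the conditional deletion or the cells in which it acted. Nor do they say whether each array is a separate animal, so p-values cover only the variation among these 8 arrays, which may be technical.

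The epidermis renews from a basal layer of dividing keratinocytes, whose daughters move up, stop dividing, and build the cornified barrier. p63, the product of Trp63, is the master regulator of stratified epithelia and keeps the basal state. Other factors then steer cells towards growth arrest (OVOL1), lipid and barrier synthesis (GATA3) and terminal differentiation (KLF4, GRHL1, GRHL3 and ZFP750, the mouse counterpart of human ZNF750). KLF5 and AP-2 alpha (Tfap2a) are expressed in growing keratinocytes, and SOX6 is a SoxD family member.

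Ehmt2 was read by 2 probe sets, of which 1 separated the genotypes. Set 1460692_PM_at read 7.07, 6.72, 6.35 and 6.30 in cKO 1 to 4 and 9.77, 9.25, 9.69 and 9.26 in WT 1 to 4, a difference of -2.88 (SE 0.19, limma adjusted p = 0.000244). Set 1426888_PM_at differed by 0.01 (SE 0.06), and the sources used here do not say which of the sets lies in the deleted part. All 8 measured keratinocyte markers lay above the level that 95% of 44 olfactory receptor probe sets stayed under, 5.16 on the log2 scale, a guide to how dim sets look on this array. The summed linear level of these markers was 40987 to 42069 in cKO and 40779 to 41499 in WT. Its largest parts came from Krt14, Dsp, Krt5 and Krt1, with log2 means of 12.6 to 12.9 in both groups. The highest value of any probe set on each array was 12.97 to 13.03. These sets thus lay near the top of the range, and the sum says little about keratinocyte content. WT 4 and cKO 2 lay outside the range of the other arrays of their groups on the first 2 principal components. On the first, WT 4 was at -7.37 against 10.0 to 14.7 for the other WT arrays. There cKO 2 was at 0.893 against -12.7 to -3.40 for the other cKO arrays, with cKO 1 nearest to it. On the second, WT 4 was at -16.3 (other WT arrays -6.19 to 0.784) and cKO 2 at 14.2 (other cKO arrays 0.379 to 6.41). The weights that limma gave arrays in an alternative fit were lowest for WT 4 (0.470) and then cKO 1 (0.611), below cKO 2 (0.710). Results that rest on them are therefore given without them as well. On the first component WT 4 lay within the range of the cKO arrays, and cKO 2 was the cKO array nearest the other WT arrays. Leaving both out is thus a choice made on the values, and it favours separation of the groups. Probe sets called rose from 210 to 657 with it, and those without overlap from 4.89% to 19.6%.

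None of the 10 factors passed the test between cKO and WT (limma over all 45037 probe sets, Benjamini-Hochberg adjusted p under 0.05), where 0.466% of all probe sets did. Without adjustment 3 of the 18 probe sets had p under 0.05, against 7.98% of all probe sets, and all 3 belonged to Sox6. Of the 18 sets 12 read lower in cKO and 6 higher, and their median difference was -0.02 against 0.0053 over all probe sets (log2, cKO minus WT here and below). In 2 sets, both of Sox6, the groups did not overlap, against 4.89% of all probe sets. All 18 member sets lay above the olfactory receptor level. In tissue RNA, fewer cells of a type and less RNA per cell cannot be told apart. Probes differ in affinity, so no order of levels between genes is read from these values.

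**Figure D1:**
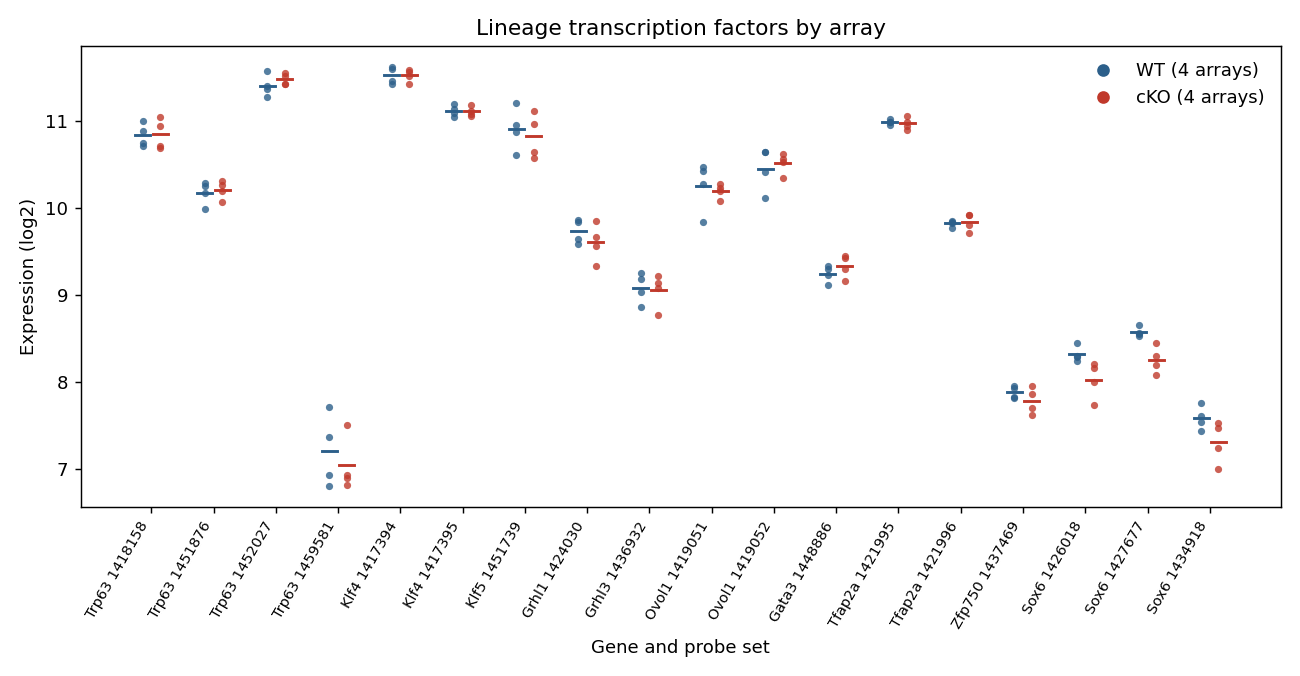
Log2 expression of each probe set of the 10 factors (x axis, gene and probe set number) in the 4 WT and 4 cKO arrays, with points for arrays and a bar for each group's mean. The points of the groups mix at every set except Sox6 1426018 and 1427677, where all cKO points lie below all WT points.

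Sox6 showed the largest differences of the 10 genes and read lower in cKO at all 3 of its probe sets. SOX6 binds DNA through an HMG box, has no activation domain of its own, and is best known in mice for its work in cartilage, with SOX5, and in red blood cells. Probe set 1427677_PM_a_at read 8.45, 8.30, 8.19 and 8.08 in cKO 1 to 4 and 8.66, 8.57, 8.55 and 8.52 in WT 1 to 4. Every cKO array lay below every WT array, with cKO 4 lowest and cKO 1 nearest to the WT values. The means were 8.26 ± 0.16 and 8.57 ± 0.06 (SD, n = 4 each), so that the difference was -0.32 (SE 0.08, 95% interval -0.49 to -0.14), or 1.25-fold lower. Its limma adjusted p was 0.184, with the p of this set ranking 619 of 45037, and the exact permutation p was 0.0286, the smallest that 4 against 4 allows.

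The other 2 Sox6 sets differed by similar amounts. Set 1426018_PM_a_at read 8.16, 8.20, 7.99 and 7.73 in cKO 1 to 4 and 8.45, 8.28, 8.24 and 8.30 in WT 1 to 4, again without overlap. The difference was -0.30 (SE 0.10, interval -0.52 to -0.07, limma adjusted p = 0.428, exact p = 0.0286). Set 1434918_PM_at read 7.53, 7.46, 7.23 and 7.00 in cKO and 7.76, 7.54, 7.61 and 7.44 in WT, and here WT 4 lay below the upper 2 cKO arrays. That difference was -0.28 (SE 0.12, interval -0.54 to -0.01, limma adjusted p = 0.587, exact p = 0.114). Deviations from the group means ran together between these sets over the 8 arrays, with r of 0.874 to 0.938, so the 3 sets of this gene are not separate evidence.

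**Figure D2:**
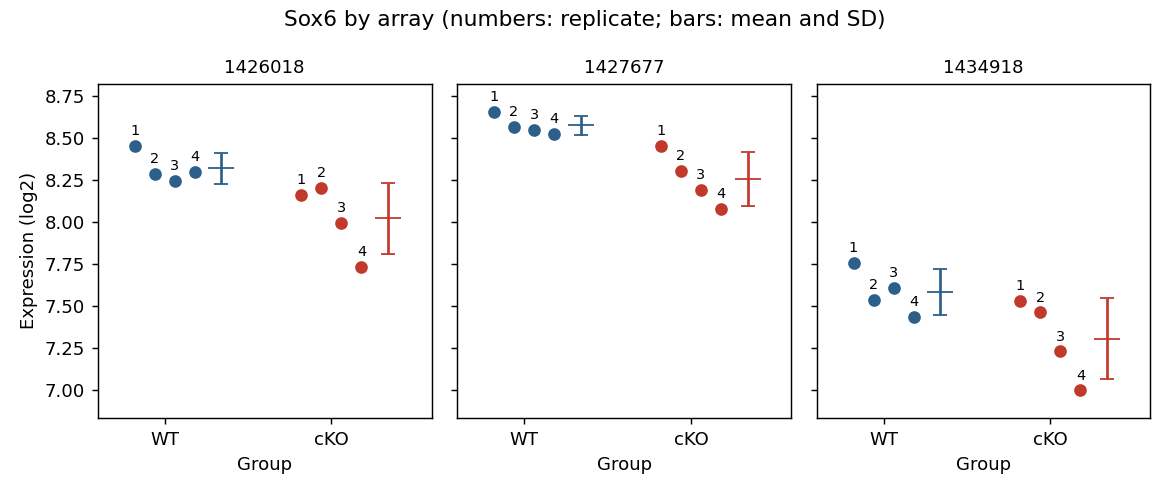
Log2 expression of the 3 Sox6 probe sets (panels) by group, with 1 point for each array numbered by replicate and the mean with SD beside them. The cKO arrays lie below the WT arrays in the first 2 panels, and cKO 4 is lowest in all 3.

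The Sox6 call depended on how arrays were weighted. With limma's array weights, which gave WT 4 a weight of 0.470 and cKO 3 one of 2.71, set 1427677_PM_a_at passed at -0.36 (SE 0.06, adjusted p = 0.0268), in a fit where 1.68% of all probe sets were called. It did not pass in any other fit over probe sets, nor when each gene had 1 value (limma adjusted p = 0.119 for the set with the highest mean and 0.292 for the mean of the 3 sets). In the fits that left out 1 array its difference ran from -0.38 to -0.26. Without both cKO 2 and WT 4 the 3 sets stood at -0.36, -0.35 and -0.38, in the order of set number. Their limma adjusted p were 0.165, 0.133 and 0.204. The groups overlapped in none of the 3 there, as in 19.6% of all probe sets. In that fit Ccn2 and Lgr5 of the bulge and outer root sheath list rose by 0.74 (SE 0.11) and 0.42 (SE 0.07), with limma adjusted p of 0.0224 and 0.0414, where 1.46% of all probe sets were called. The other 6 genes of that list were not called there, and the median of the 8 was -0.02.

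Markers of follicle cells, pigment cells and fibroblasts were set beside Sox6. The bulge and outer root sheath list, with 8 of 8 genes measured and 4 above the olfactory receptor level, summed to 2229 to 3043 in cKO and 2390 to 2998 in WT. Most of this sum was that of Postn, Sox9 and Nfatc1, with log2 means of 10.3, 9.3 and 9.1 in cKO and 10.3, 9.4 and 9.3 in WT. The sum therefore says little about the dimmer genes of the list. The melanocyte list (7 of 7 measured) summed to 397 to 468 in cKO and 402 to 455 in WT, and the fibroblast list (8 of 8 measured) to 240 to 259 and 237 to 261. The ranges overlapped in each, Cd34, Lgr5, Lhx2, Krt75, Tyr and Tyrp1 were below the olfactory receptor level, as were 5 of the fibroblast markers, and the part of these cells in the Sox6 values was not tested.

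The promoter windows of Sox6, the gene with the clearest difference, and Klf4, the gene with the smallest, are shown for comparison with CpG dinucleotides in capitals. They are RefSeq windows on GRCm38.p6, 250 bases before to 50 after a listed start, read 5′ to 3′ on the minus strand of each gene; Sox6 has 6 listed starts, and the outermost is shown, at chr7:116038695-116038994, with Klf4 at chr4:55532426-55532725.
Sox6: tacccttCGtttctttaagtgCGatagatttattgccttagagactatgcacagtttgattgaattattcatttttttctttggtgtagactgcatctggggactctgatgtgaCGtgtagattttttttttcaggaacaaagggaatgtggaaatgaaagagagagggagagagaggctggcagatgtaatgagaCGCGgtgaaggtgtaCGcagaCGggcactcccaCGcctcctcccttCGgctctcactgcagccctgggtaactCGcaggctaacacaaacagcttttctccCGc
Klf4: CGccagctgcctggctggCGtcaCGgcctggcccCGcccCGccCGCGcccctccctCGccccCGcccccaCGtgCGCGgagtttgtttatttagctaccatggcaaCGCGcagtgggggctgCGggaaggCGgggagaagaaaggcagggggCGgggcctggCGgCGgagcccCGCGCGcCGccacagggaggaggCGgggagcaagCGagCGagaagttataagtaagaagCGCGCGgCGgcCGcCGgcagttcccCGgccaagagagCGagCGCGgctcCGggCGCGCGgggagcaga
The Sox6 window held 11 CpG and the Klf4 window 40, where the median of 32851 windows was 7. The other 5 Sox6 windows held 2 to 13. Which start is used in these cells was not measured.

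Trp63 did not differ detectably between cKO and WT. Set 1452027_PM_a_at read 11.56, 11.43, 11.51 and 11.43 in cKO 1 to 4 and 11.41, 11.36, 11.27 and 11.57 in WT 1 to 4. The highest value of all was that of WT 4, and the other WT arrays lay below every cKO array. The difference was 0.08 (SE 0.07, interval -0.07 to 0.23, limma adjusted p = 0.901), and without WT 4 it was 0.13 with no overlap (limma adjusted p = 0.384), as in 11.6% of all probe sets in that fit. Sets 1418158_PM_at and 1451876_PM_a_at stood at 0.01 (SE 0.10, interval -0.21 to 0.23) and 0.03 (SE 0.08, interval -0.14 to 0.21).

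The fourth Trp63 set did not run with the others. Set 1459581_PM_at read 6.90, 6.93, 6.81 and 7.51 in cKO 1 to 4 and 6.92, 6.80, 7.36 and 7.71 in WT 1 to 4. Replicate 4 was highest in both groups, and the difference of -0.16 (SE 0.22) had a wide interval, -0.65 to 0.32. The residual SD of this set was in the 99.0th percentile of all probe sets. Its deviations from the group means correlated with those of the other 3 sets at r of -0.191 to 0.185 over 8 arrays, where those 3 correlated with each other at 0.569 to 0.838. The annotation does not say which p63 isoforms each set reads, so the N-terminal forms TAp63 and delta-Np63 are not separated here.

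Klf5 varied more between arrays of 1 group than between the groups. KLF5 is a zinc finger factor of proliferating epithelial cells. Its set, 1451739_PM_at, read 10.96, 11.12, 10.58 and 10.65 in cKO 1 to 4 and 10.96, 10.88, 11.21 and 10.61 in WT 1 to 4. WT 4 lay with cKO 3 and cKO 4 at the low end, and cKO 1 and cKO 2 lay with the other WT arrays. The difference was -0.09 (SE 0.15, interval -0.42 to 0.25, limma adjusted p = 0.973), and it was -0.29 without both cKO 2 and WT 4 (limma adjusted p = 0.307).

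Tfap2a had narrow intervals around 0. AP-2 alpha acts with AP-2 gamma (Tfap2c) in keratinocyte gene expression and is known to hold down Egfr above the basal layer. Set 1421995_PM_at read 11.06, 10.99, 10.95 and 10.90 in cKO 1 to 4 and 11.02, 10.96, 10.99 and 10.99 in WT 1 to 4. The WT arrays fell inside the range of the cKO arrays, and the difference was -0.01 (SE 0.05, interval -0.12 to 0.09, limma adjusted p = 0.990). The second set, 1421996_PM_at, stood at 0.01 (SE 0.05, interval -0.11 to 0.14). Over these 8 arrays the intervals spanned ratios of cKO to WT signal of 0.922 to 1.06 and 0.927 to 1.10.

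Ovol1, whose zinc finger product represses Myc and takes part in the exit from the cell cycle, turned on 1 array. Set 1419051_PM_at read 10.20, 10.28, 10.23 and 10.08 in cKO 1 to 4 and 10.47, 10.42, 10.28 and 9.84 in WT 1 to 4. WT 4 was the lowest of the 8 arrays, and the other WT arrays were above every cKO array except that WT 3 and cKO 2 were level at 10.28. The difference over all arrays was -0.05 (SE 0.13, limma adjusted p = 0.983), and without WT 4 it was -0.19 (SE 0.07, interval -0.35 to -0.04, limma adjusted p = 0.296). The second set, 1419052_PM_at, stood at 0.06 (SE 0.12) over all arrays and at -0.05 without WT 4. The sets ran together over the arrays (r = 0.956 of deviations from the group means over 8 arrays), and the within-array gap between them differed by -0.12 between cKO and WT (exact permutation p = 0.0857, adjusted 0.257 over 3 genes with 2 sets each). For Klf4 and Tfap2a this gap differed by 0.0043 and -0.03 (exact permutation p = 0.943 and 0.657).

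Gata3 had the largest difference among members that read higher in cKO, and it did not pass either. GATA3 directs the inner root sheath of the hair follicle and supports lipid synthesis in the epidermal barrier, and it is also the master factor of Th2 cells and group 2 innate lymphoid cells. Set 1448886_PM_at read 9.30, 9.17, 9.43 and 9.45 in cKO 1 to 4 and 9.23, 9.30, 9.12 and 9.34 in WT 1 to 4. cKO 3 and cKO 4 were above all WT arrays and cKO 2 was below most of them. The difference was 0.09 (SE 0.07, interval -0.08 to 0.26, limma adjusted p = 0.895). Without both cKO 2 and WT 4 it was 0.18 (SE 0.07), at a limma adjusted p of 0.268. The groups did not overlap in that fit, as in 19.6% of all probe sets.

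T cell markers beside Gata3 summed to 640 to 720 in cKO and 600 to 666 in WT, with 8 of 10 listed genes measured and Cd3e, Cd3g and Cd2 below the olfactory receptor level. Of these markers Cd5, a surface receptor of T cells and some B cells, rose by 0.70 (SE 0.08, limma adjusted p = 0.00539). The other 7 did not pass, where 0.466% of all probe sets did. The median difference of the 8 markers was 0.05, with 2 lower and 6 higher. Of the list of ILC2 and Th2 genes, 6 of 9 were measured, and Icos, Il5, Il13, Il4 and Ptgdr2 were below the olfactory receptor level. Its sum, 2406 to 2756 in cKO and 2371 to 2890 in WT, was almost all that of Rora (difference -0.06, SE 0.08), the 1 member above it. The inner root sheath and hair shaft list, 9 of 12 measured, summed to 435 to 445 and 429 to 452. What part other cells had in the Gata3 values was not tested.

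Klf4, the factor needed to complete the skin barrier in mice, had the smallest differences. Set 1417394_PM_at read 11.59, 11.56, 11.52 and 11.43 in cKO 1 to 4 and 11.62, 11.46, 11.60 and 11.43 in WT 1 to 4, and 1417395_PM_at read 11.08, 11.19, 11.11 and 11.06 against 11.20, 11.09, 11.14 and 11.04. The groups overlapped at both sets. Differences were -0.0024 (SE 0.06) and -0.0067 (SE 0.05). Over these 8 arrays their 95% intervals spanned ratios of cKO to WT signal of 0.909 to 1.10 and 0.920 to 1.08.

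The grainyhead factors and Zfp750 also did not pass. Grhl1, whose product drives desmosomal cadherin genes in mouse skin, read 9.57, 9.34, 9.85 and 9.66 in cKO 1 to 4 and 9.83, 9.59, 9.64 and 9.87 in WT 1 to 4 at set 1424030_PM_at. cKO 1 and cKO 2 lay below the WT range, and the difference was -0.13 (SE 0.11, interval -0.37 to 0.12, limma adjusted p = 0.901). It became 0.0058 without both cKO 2 and WT 4. Grhl3, needed for barrier formation and wound closure in mice and known to control Tgm1, read 8.77, 9.08, 9.13 and 9.22 in cKO and 9.03, 9.25, 9.18 and 8.86 in WT at set 1436932_PM_at. cKO 1 and WT 4 were the low arrays, and the difference was -0.03 (SE 0.11, interval -0.28 to 0.22, limma adjusted p = 0.992). Zfp750, whose human counterpart acts below p63 to switch on terminal differentiation, read 7.62, 7.69, 7.96 and 7.86 in cKO and 7.92, 7.81, 7.83 and 7.95 in WT at set 1437469_PM_at. cKO 1 and cKO 2 lay below the WT range and cKO 3 just above it. The difference was -0.10 (SE 0.08, interval -0.27 to 0.08, limma adjusted p = 0.889).

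**Figure D3:**
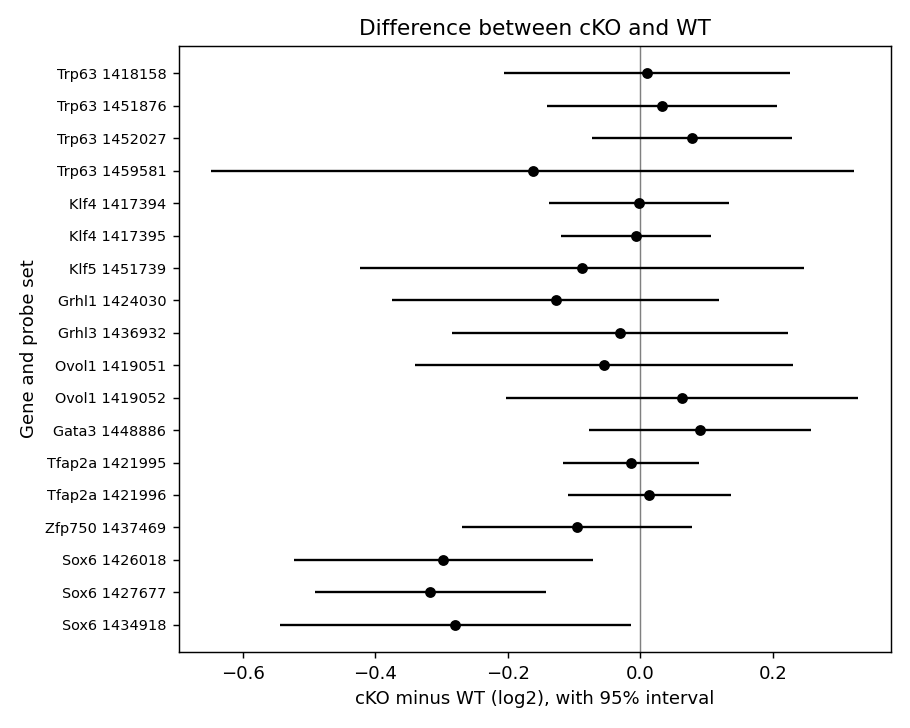
Difference between cKO and WT (x axis, log2) with its 95% interval from limma for each of the 18 probe sets (y axis). The intervals of the 3 Sox6 sets lie below 0, the other 15 cross it, and those of Klf4 and Tfap2a are the narrowest.

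Without both cKO 2 and WT 4, 7 of the 18 sets had an unadjusted p under 0.05, where 15.4% of all probe sets did, and in 6 the groups did not overlap, where 19.6% of all did. These 6 were the 3 Sox6 sets and Ovol1 1419051_PM_at on the lower side and Trp63 1452027_PM_a_at and Gata3 on the higher side, and Klf5 was the seventh by p. None of them had a limma adjusted p under 0.05 in that fit. The 2 arrays were left out because earlier results of these data had shown them to stand apart, so these counts follow a choice made on the values.

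Over the 8 arrays, some of the factors deviated from their group means together and others in opposite directions. At the set with the highest mean of each gene, the closest pair of 45 was Tfap2a and Sox6 (Pearson r = 0.947), followed by Grhl1 and Zfp750 (0.821) and Klf4 and Klf5 (0.738). The 2 Tfap2a sets ran together at only r = 0.227, and the residual SD of the one used here was in the 13.3rd percentile of all probe sets, so that pair rests on 1 of its sets. Klf5 and Gata3 stood most opposed (-0.954), followed by Grhl3 and Tfap2a (-0.812) and Trp63 and Grhl3 (-0.785). Klf5 was lowest in cKO 3, cKO 4 and WT 4, the arrays with the highest Gata3 in each group, and the reverse held for cKO 2 and WT 3. The median r over the 45 pairs was -0.173. The arrays share preparation and normalisation, and r over 8 arrays is a description only.

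**Figure D4:**
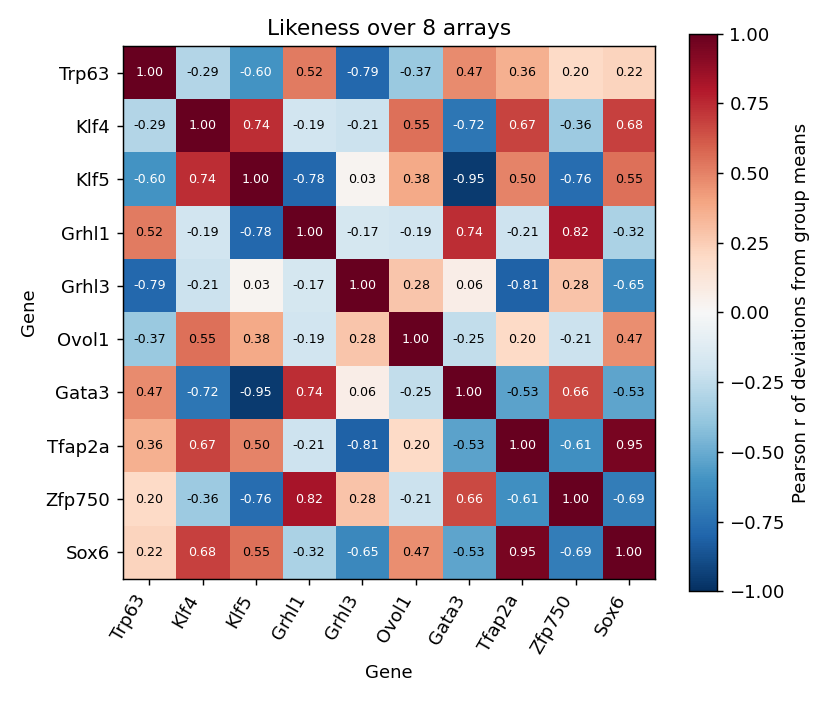
Pearson r between genes (both axes) of deviations from the group means over 8 arrays, at the probe set with the highest mean of each gene; red is positive and blue negative. Tfap2a with Sox6 is the strongest positive pair at 0.95 and Klf5 with Gata3 the strongest negative at -0.95.

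The promoter window of Gata3 is shown with its matches to CACCC, the core of the box that KLF proteins bind, in capitals on either strand, because Klf5 and Gata3 were the most opposed pair. It lies at chr2:9878551-9878850 (GRCm38.p6, RefSeq, minus strand).
Gata3: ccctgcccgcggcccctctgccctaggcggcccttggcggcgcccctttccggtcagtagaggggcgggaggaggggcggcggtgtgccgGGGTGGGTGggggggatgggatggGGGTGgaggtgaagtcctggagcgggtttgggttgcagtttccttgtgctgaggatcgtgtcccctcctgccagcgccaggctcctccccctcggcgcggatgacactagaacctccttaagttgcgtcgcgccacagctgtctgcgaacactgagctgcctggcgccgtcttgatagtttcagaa
It held 3 matches, as did the window of Grhl3. At least 1 match was held by 57.5% of all 32851 windows of the same length, and the share with 3 was not counted. A link between Klf5 and Gata3 was not tested. Promoter windows were found for 6 of the 10 genes, 13 windows in all. A GCCNNNGGC match, the core of AP-2 sites, was found 3 times in the Gata3 window and once each in those of Klf4 and the outer start of Grhl1 (16.6% of all windows hold it). The grainyhead core AACCNGTT (2.09% of all windows) and the AP-1 core TGANTCA (7.81%) were in none of the 13. AGATAA, the GATA core, was in 1 Sox6 window (11.2% of all windows), AACAAT, the SOX core, in 1 other Sox6 window (10.7%), and TATAAA in a further 2 (13.6%). Motifs were counted on both strands and may overlap, and a match is a description of letters and not a bound site.

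For each factor the 2 named genes that deviated most alike were found among 15909 named probe sets with a mean above the median probe set, by Pearson r of the same deviations over 8 arrays. For Sox6 these were Sh3pxd2a and Mycbp2 (r = 0.991 each), for Trp63 Tbc1d9b (0.989) and Dtd2 (0.986), and for Klf4 Gk5 (0.980) and Mbnl3 (0.975). Gata3 was closest to Pik3c3 and Cwc27 (0.996 each), Klf5 to Whrn (0.989) and Prss23 (0.983), and Tfap2a to Ssh2 and 4930562C15Rik (0.988 each). Grhl1 was closest to Epn2 (0.990) and Ank3 (0.989), Grhl3 to Hspbp1 (0.990) and Orai1 (0.979), Ovol1 to Prkch (0.980) and Pim3 (0.979), and Zfp750 to Tnfaip1 (0.989) and Lysmd2 (0.971). Among 796 probe sets taken at even steps from the same table, the highest r with another gene had a median of 0.988, so such values are usual here.

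The nearest relatives of the factors, named after their values were seen, did not pass either. Sox5, the SoxD partner of Sox6, stood between -0.04 and 0.03 at its sets 1459261_PM_at and 1432189_PM_a_at (SE 0.07 and 0.05). Grhl2 stood at 0.05 and 0.00049 (SE 0.07 and 0.08), Tfap2c at -0.06 and 0.04 (SE 0.10 and 0.06), and Trp73 at 0.10 at both its sets (SE 0.07 each). Ovol2, related to Ovol1 and known to guard the epithelial state, read 6.44 ± 0.12 in cKO and 6.26 ± 0.12 in WT (difference 0.18, SE 0.08, limma adjusted p = 0.597).

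Of 46 measured of 48 listed other epidermal transcription factors, 0 passed in either direction in the same limma fit, where 0.466% of all probe sets did. At that share few or no calls come from a list of this size. Their median difference was 0.03, against 0.0083 over all genes, with 17 lower and 29 higher. Over all genes 7733 were lower and 9364 higher. At the set with the highest mean of each gene, the furthest were Elf3, an ETS factor of epithelial differentiation, at -0.39 (SE 0.22, limma adjusted p = 0.766), Tfap2b, a further AP-2 gene, at 0.37 (SE 0.13, adjusted p = 0.481), Ets1 at -0.27 (SE 0.28, adjusted p = 0.933) and the follicle factor Lhx2, itself below the olfactory receptor level, at 0.20 (SE 0.07, adjusted p = 0.520). Other sets of Foxp1, Hopx and Runx1 reached -0.30 (SE 0.20), 0.22 (SE 0.09) and 0.21 (SE 0.16). Without both cKO 2 and WT 4, Tfap2b rose by 0.56 (SE 0.09, limma adjusted p = 0.0296), and Foxp1 fell at 3 of its 7 probe sets, by 0.34 to 0.62 (limma adjusted p from 0.0217 to 0.0290), where 1.46% of all probe sets were called. The other 4 Foxp1 sets, the one with the highest mean included, were not called.

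Genes known to act with or below p63 did not pass. Of 23 measured of 30 listed, 0 passed, where 0.466% of all probe sets did. Of these genes 11 were lower and 12 higher, and the median difference was 0.00084. Satb1, a chromatin organiser that p63 controls in mouse epidermis, read 8.84 ± 0.05 in cKO and 8.65 ± 0.08 in WT at set 1416007_PM_at. The difference was 0.19 (SE 0.05, limma adjusted p = 0.256) with no overlap, as in 4.89% of all probe sets. Satb1 sets 1436182_PM_at and 1416008_PM_at stood at 0.09 (SE 0.05) and 0.12 (SE 0.09), both with overlap (limma adjusted p = 0.774 and 0.862). At the highest-mean set of each gene, the desmosomal cadherin gene Dsc3, the integrin gene Itga6 and the tight junction gene Cldn1 stood at -0.11 (SE 0.05), -0.11 (SE 0.07) and 0.11 (SE 0.08), with limma adjusted p of 0.672, 0.816 and 0.834. Dst, a plakin gene of the hemidesmosome, stood at -0.37 (SE 0.13, limma adjusted p = 0.438) and -0.32 (SE 0.10, adjusted p = 0.389) at 2 of its 4 sets and at -0.01 (SE 0.05) at the set with the highest mean.

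Barrier genes below KLF4, GRHL factors and ZFP750 did not pass either, with 0 of 33 measured (35 listed) called, where 0.466% of all probe sets were. The median difference was -0.04, with 21 lower and 12 higher, against 7733 lower and 9364 higher over all genes. Klk7, a protease that sheds corneocytes, read 7.95 ± 0.19 in cKO and 8.49 ± 0.24 in WT (difference -0.54, SE 0.13, limma adjusted p = 0.177). The claudin gene Cldn4 stood at -0.46 (SE 0.25, adjusted p = 0.736), the corneodesmosome gene Cdsn at -0.38 (SE 0.07, adjusted p = 0.0740) and the lipid transporter gene Abca12 at 0.35 (SE 0.11, adjusted p = 0.376). Tgm1, the GRHL3 target, stood at -0.32 (SE 0.16, adjusted p = 0.701). In 4 of the 33 genes, Klk7, Cdsn, Abca12 and the transglutaminase gene Tgm5 (0.24, SE 0.07, limma adjusted p = 0.251), the groups did not overlap, against 4.89% of all probe sets. Without both cKO 2 and WT 4, Tgm5 rose by 0.32 (SE 0.06, limma adjusted p = 0.0493). It was the only 1 of the 33 genes called in that fit, where 1.46% of all probe sets were called.

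Among 18 measured of 19 genes reported as targets of OVOL1, TFAP2A, GATA3 or KLF5, 0 passed, where 0.466% of all probe sets did. Here 9 were lower and 9 higher, with a median of -0.0013. Foxq1, a forkhead factor of the hair shaft, read 7.94 ± 0.18 in cKO and 8.40 ± 0.15 in WT at 1 set (difference -0.46, SE 0.10, limma adjusted p = 0.147) and stood at -0.17 (SE 0.05, adjusted p = 0.322) at its other. Id2, Agpat5 and the plakophilin gene Pkp1 stood at 0.13 (SE 0.07), 0.11 (SE 0.05) and 0.08 (SE 0.04). Myc, repressed by OVOL1, stood at -0.06 (SE 0.09, limma adjusted p = 0.968).

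**Figure D5:**
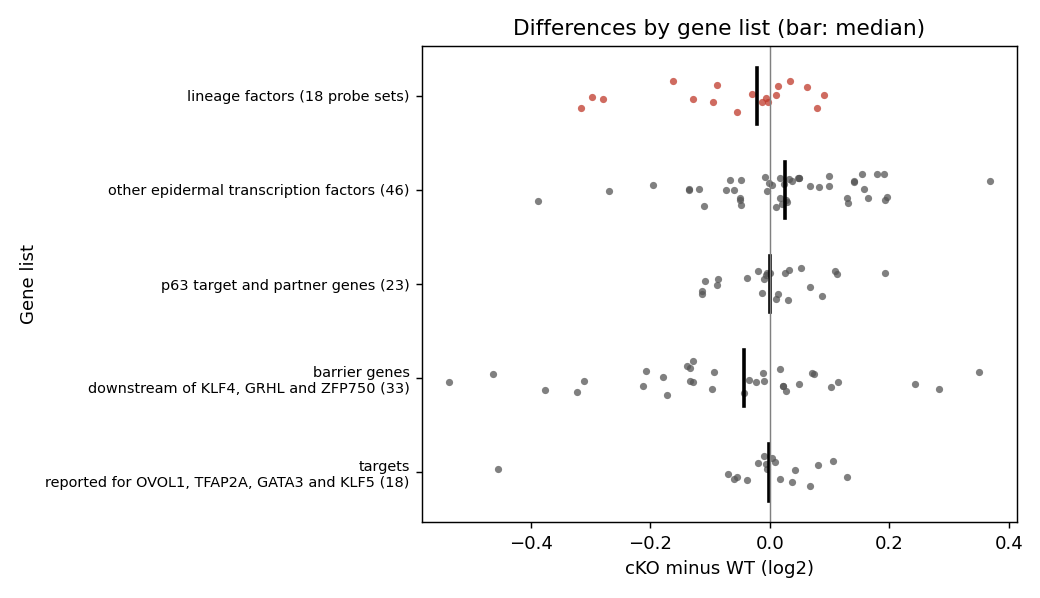
Difference between cKO and WT (x axis, log2) of the 18 probe sets of the lineage factors and of the genes of 4 lists (y axis, number measured in brackets, 1 probe set a gene), with a bar at each median. The medians run from -0.04 to 0.03, and the barrier genes reach from -0.54 to 0.35.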

How the data were processed

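Expression was measured on 8 one-colour arrays, 4 of cKO and 4 of WT epidermis. The authors deposited 1 log2 value for each probe set and array. The submitters' processing notes name RMA, with no version; base 2 was inferred from the range (array medians 5.72 to 5.80). Per the labels' protocols, 25 ng RNA were amplified in 17 cycles. Of 45141 rows, 104 control sets were left out, 28898 of the rest name 1 gene, 551 several and 15588 none here. Symbols were updated through Entrez numbers (28689 found). No dim set was removed.

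All probe sets were fitted with limma 3.58.1 (lmFit, then eBayes) under R 4.3.3, cKO minus WT, two-sided, Benjamini-Hochberg adjusted, threshold 0.05. Exact permutation tests were two-sided over 70 arrangements. Arrays give no read depth, so their number limits the precision. The fit was tested on simulated data for the same 45037 probe sets (3 runs, 200 changed in each): it recovered 72.6% of changes of 0.5, 94.1% of 1 and 100% of 2 (log2), and at most 7.81% of calls were false. The simulated noise was normal and independent for each probe set and array, with no outlying arrays. Rates in the real data, where WT 4 and cKO 2 stand apart, were not tested. Plots used matplotlib 3.10.9.

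The members, lists and alternatives were chosen with earlier results of these data known. Named genes are the members, Ehmt2, up to 4 genes a list by passing and then by size, and the most alike genes. Relatives, Dst, Rora, Hopx, Runx1, Tgm1, Tgm5, Foxp1, Ccn2, Lgr5, Postn, Sox9, Nfatc1 and Myc were named after their values were seen. Alternatives were array weights, another prior, rescaling, a filter on dim sets, a replicate block, 1 value a gene and leaving out arrays.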

Additional observations from a re-analysis of the deposited data

Results flagged for a closer look

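The Trp63 set 1459581_PM_at in cKO 4 read 7.51, far above the other 3 cKO arrays (6.81 to 6.93), the gap being 0.837 of the group's whole range where 0.829 marks an outlier among 4. WT 4 was also the highest array of its group at this set, at 7.71. It was 1 of 40 groups of 4 checked, and chance marks about 1 in 20 (5%).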

How the results depend on the processing

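Of the differences recomputed for the 18 member sets and 2 Ehmt2 sets, 251 kept their direction and their side of the threshold, 34 turned in sign and 1 (Sox6 1427677_PM_a_at with array weights) passed. Leaving out arrays means fewer samples; other causes were not tested. With array weights 758 of all probe sets, 1 member set and 1 member gene were called, against 210, 0 and 0. Among probe sets above the median level 132 probe sets were called, and without both cKO 2 and WT 4 657 were called. Leaving out 1 array gave 104 (WT 1) to 356 (WT 4) called, with 131 without cKO 2, 108 without cKO 3 and 112 without WT 3. No member was called by limma in these fits that left arrays out, and at unadjusted p under 0.05 there were 2 to 5 member sets without 1 array (5.50% to 12.2% of all probe sets) and 7 without both (15.4%). Member sets without overlap numbered 2 to 4 when 1 array was left out (4 without WT 4), where 6.01% to 11.6% of all did so, and 6 without both (19.6%). Arrays with the same replicate number did not run together throughout (correlations of their deviations 0.134, 0.221, -0.624 and 0.368). The replicate block called 175 probe sets and 0 members. It lowered the SE at some member sets (Trp63 1459581_PM_at from 0.22 to 0.10) and raised it at others (Klf4 1417395_PM_at from 0.050 to 0.059).

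No sign turned for Trp63 1452027_PM_a_at, Gata3, Zfp750, the 3 Sox6 sets or Ehmt2 1460692_PM_at. Centring arrays on their medians turned Trp63 1418158_PM_at to -0.0053 and Tfap2a 1421996_PM_at to -0.0026. Leaving out both arrays turned Trp63 1459581_PM_at to 0.044, Grhl1 to 0.0058 and Ovol1 1419052_PM_at to -0.057. Leaving out 1 array moved Trp63 1418158_PM_at between -0.054 and 0.065, 1451876_PM_a_at between -0.028 and 0.081, and 1459581_PM_at between -0.32 and 0.0078. For Klf4 the ranges were -0.035 to 0.030 at 1417394_PM_at and -0.033 to 0.021 at 1417395_PM_at, for Klf5 -0.19 to 0.011 and for Grhl3 -0.10 to 0.064. Ovol1 ran from -0.19 to 0.017 at 1419051_PM_at and from -0.051 to 0.13 at 1419052_PM_at. Tfap2a ran from -0.042 to 0.011 at 1421995_PM_at and from -0.013 to 0.054 at 1421996_PM_at, and Ehmt2 1426888_PM_at from -0.030 to 0.045. All 18 member sets were above the olfactory receptor level, and whether background limited any of them was not tested.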
